A study of Mus musculus with 18 samples.

Results

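Cxadr, Itgav, Itgb1, Itgb3, Itgb5 and Itgb6 encode the host cell-surface molecules that adenovirus 5 uses for attachment and uptake. They were chosen by symbol for that role, as 6 genes of the 55401 in the count files, and all 6 were among the 27525 genes with enough counts to be tested. Expression was measured by RNA sequencing of gp38+ (podoplanin-bearing) stromal cells sorted from salivary glands of wild-type Balb/c mice aged 8 to 12 weeks. The 18 libraries form 6 groups of 3. Replicates 10 to 12 came from uninfected glands and are called hour 0. The other glands were infected through the cannulated submandibular duct with 100000000 to 1000000000 plaque-forming units of adenovirus 5 that cannot replicate. They were harvested at hour 3 (replicates 4 to 6), day 1 (replicates 13 to 15), day 2 (replicates 16 to 18), day 8 (replicates 1 to 3) or day 23 (replicates 7 to 9). Each library has its own subject label. None of these groups received the cannulation alone, so the effects of virus and procedure cannot be told apart in contrasts with hour 0. The 3 libraries of a group measure the spread between those mice and their sorts.

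Adenovirus 5 attaches through its fibre to the coxsackievirus and adenovirus receptor, the product of Cxadr, an adhesion protein of epithelial cell junctions. The penton base of the particle then binds integrins that carry the alpha v subunit (Itgav), through the same short motif by which these integrins hold vitronectin and fibronectin, and the particle is taken up in clathrin-coated vesicles. Alpha v pairs with a beta subunit, the product of Itgb1, Itgb3, Itgb5, Itgb6 or Itgb8. Fibroblasts are known to carry alpha v integrins in abundance and little of the fibre receptor, whereas Itgb6 is mainly an epithelial gene. RNA levels give no measure of protein at the cell surface.

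The promoters of Itgav and Itgb5 are shown because these 2 subunits form 1 receptor and their transcripts had the largest rise and the largest fall against hour 0 among the 6 genes. The sequences are the 250 bases before the annotated start in the RefSeq promoter table (GRCm38.p6), at chr2:83724147-83724396 for Itgav and chr16:33829415-33829664 for Itgb5, both on the plus strand. Capitals mark matches of the motifs searched.
Itgav: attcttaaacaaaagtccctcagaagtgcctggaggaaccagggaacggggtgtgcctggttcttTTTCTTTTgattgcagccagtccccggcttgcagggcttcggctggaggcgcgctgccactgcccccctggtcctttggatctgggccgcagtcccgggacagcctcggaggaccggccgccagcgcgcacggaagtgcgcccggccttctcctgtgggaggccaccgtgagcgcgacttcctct
Itgb5: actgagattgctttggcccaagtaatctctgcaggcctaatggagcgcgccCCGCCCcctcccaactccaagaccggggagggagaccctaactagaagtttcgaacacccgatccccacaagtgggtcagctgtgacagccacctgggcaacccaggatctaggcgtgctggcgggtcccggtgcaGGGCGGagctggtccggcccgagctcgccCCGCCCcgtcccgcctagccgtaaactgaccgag
The Itgb5 window held 3 GC boxes (GGGCGG on either strand), a motif found in 32.7% of the 32851 promoter windows of this length, and the Itgav window held none. The Itgav window held 1 match of an interferon-response core (TTTCNNTT, in 21.3% of windows) and the Itgb5 window none. Neither held the AP-1 motif TGANTCA (6.75% of windows), the NF-kB core GGANTTCC (4.00%) or TATAAA (12.4%). All motifs were searched on both strands and none overlapped another. The GC content was 64.4% for Itgav and 65.2% for Itgb5, against a median of 52.4% over all windows. Of the other genes, Itgb1 held 1 GC box, Itgb6 has 2 windows in the table of which 1 held an interferon-response core, and for Cxadr and Itgb3 no window was used here.

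Total counts ran from 4398234 to 15234431 per library. Levels are given as CPM, the counts of a gene per 1000000 counts of the library, with that total scaled by the trimmed mean of M values (TMM). All 10 fibroblast markers had counts in every group, and their summed level lay between 11140 CPM (the lowest library of day 1) and 44680 (the highest of hour 3). Pdpn, which encodes the gp38 used for the sort, averaged 60.4 CPM at hour 0 and 827 at hour 3. The sum of 5 acinar markers was 30750 to 70030 CPM at hour 0, 71850 to 117200 at hour 3 and 2354 to 3161 at day 1. It was 219 to 1094 at day 2, 47240 to 145200 at day 8 and 73330 to 227200 at day 23. Mucl2 made up most of this sum, with means of 47650 CPM at hour 0 and 148400 at day 23. The part of acinar RNA in the levels of the receptor genes was not tested. In replicates 10 to 18 (hour 0, day 1, day 2) between 28124 and 42342 genes had counts, and in replicates 1 to 9 between 16488 and 21542. Olfactory, vomeronasal and taste receptor genes (1504 in all), taken as silent in stroma, had 0.567 to 2.01 counts per kb of exon in replicates 10 to 18 and 0.0116 to 0.0852 in replicates 1 to 9. These sets are called the high-background and the low-background libraries. Background was not equal within the high-background set. It was 1.01 to 1.25 counts per kb at hour 0, 0.567 to 0.956 at day 1 and 1.30 to 2.01 at day 2. Genes with counts numbered 30681 to 33237 at hour 0, 28124 to 31630 at day 1 and 39801 to 42342 at day 2. Set and time cannot be told apart where hour 3, day 8 or day 23 is compared with hour 0, day 1 or day 2. With library totals in place of TMM, the log2 fold changes of single genes shifted by a median of -1.15 for hour 3 against hour 0. This median shift was -0.39 for day 8, -0.44 for day 23 and 0.37 for day 2 against hour 0. It was 0.76 for day 8 and 0.70 for day 23 against hour 3, and 0.27 for day 2 against day 1. With DESeq2 size factors it was 0.21 for day 2 against hour 0 or day 1. It was -0.13 and -0.12 there for day 8 and day 23 against hour 0.

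All 6 genes changed over the 6 time groups (edgeR F test over all groups, adjusted p from 1.24e-17 for Itgav to 0.00109 for Itgb6), where 83.9% of all genes tested did, so the count is near that of any gene. The single contrasts separate them. At day 1 against hour 0, Itgav, Itgb1 and Itgb5 fell and none of the 6 rose, with 22.5% of all genes called (9.67% higher, 12.8% lower). The 6 genes had a median log2 fold change of -0.58, and all genes one of -0.41. The median of all genes covers genes with few counts too, and the part of background in it was not tested in any contrast. At day 2 against hour 0 the same 3 genes were lower and none was higher (14.8% of all genes called, 5.12% higher and 9.63% lower), with a median of -0.60 against 0.29 for all genes. From day 1 to day 2, Itgav and Itgb5 rose and none fell (23.2% called, 12.0% higher and 11.2% lower). With no filter on low counts, Itgb5 alone rose and Cxadr (-0.87), Itgb1 (-0.57) and Itgb3 (-0.82) fell. In a fit of only these 2 groups Itgb5 rose and Cxadr and Itgb3 fell, and in a fit of the high-background libraries Itgb5 rose and Itgb3 fell.

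At hour 3 against hour 0, Cxadr, Itgav, Itgb1 and Itgb3 rose and none fell, with 60.0% of all genes called (16.9% higher, 43.1% lower). The median of the 6 genes was 1.05 and that of all genes -1.41. The hour 0 libraries had counts for 30681 to 33237 genes and those of hour 3 for 19068 to 19599. The part of this difference in the median of all genes was not tested. With library totals this contrast gave 1 rise (Itgav) and 3 falls (Itgb3, Itgb5 and Itgb6). At day 8 Cxadr was higher than at hour 0, no other of the 6 was, and none was lower (43.9% called, 11.2% higher and 32.7% lower). Itgb3 was lower there under 6 of the 15 other settings and Itgb5 under 4. At day 23 Itgb6 was lower than at hour 0 and none was higher (34.0% called, 8.51% higher and 25.4% lower). Among the low-background libraries, Itgav, Itgb1 and Itgb3 fell from hour 3 to day 8 and none rose (30.7% called, 16.5% higher and 14.1% lower). With library totals Itgav and Itgb1 fell and Cxadr, Itgb5 and Itgb6 rose. At day 23 against hour 3, 5 of the 6 genes were lower, all but Itgb5, and none was higher (30.0% called, 15.7% higher and 14.3% lower). With library totals Itgav, Itgb1 and Itgb6 were lower and Itgb5 was higher. Cxadr and Itgb6 fell from day 8 to day 23 and none rose (5.32% called, 2.25% higher and 3.08% lower). Contrasts that name the same group share its libraries.

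**Figure D1:**
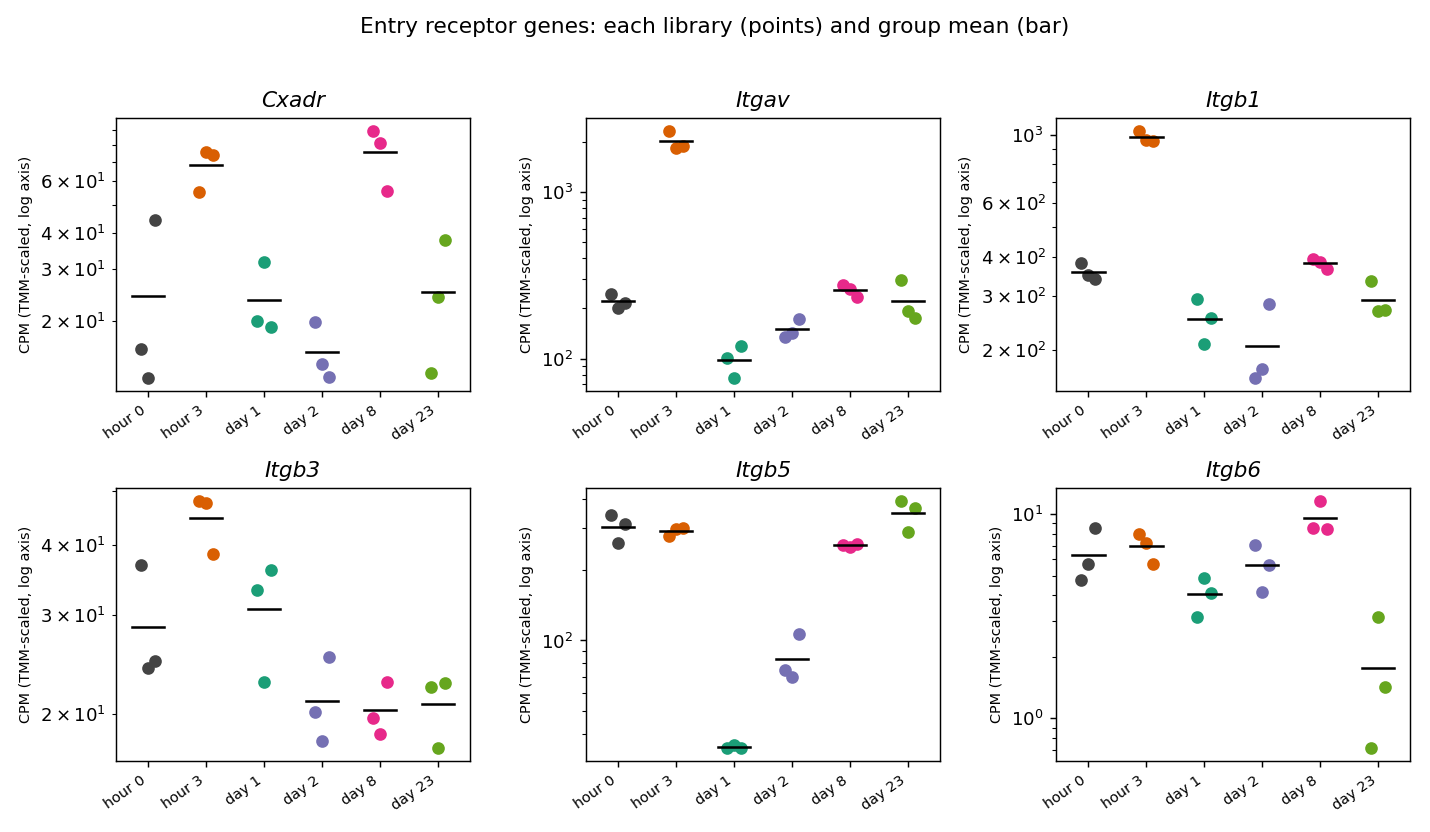
TMM-scaled CPM of the 6 receptor genes on log axes, with a point for each library and a bar for the mean of the 3 libraries of a group. Itgav stands at 1829 to 2332 CPM in the hour 3 libraries and Itgb5 at 34.8 to 35.8 in those of day 1, apart from every other group.

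Cxadr encodes the fibre receptor (ENSMUSG00000022865, GRCm38 chromosome 16, 78301489 to 78359774, plus strand). Its level in the uninfected glands was 16.0, 12.7 and 44.1 CPM. Hour 3 libraries had 55.3, 75.9 and 74.1 CPM. Day 1 libraries had 19.9, 31.7 and 19.1 CPM. The hour 3 libraries lay above every library of hour 0 and day 1, and replicate 12 stood well above the other hour 0 libraries. At day 2 the values were 19.8, 14.2 and 12.8 CPM. At day 8 they were 89.6, 81.1 and 55.8 CPM, and at day 23 they were 13.2, 24.1 and 37.9 CPM. Hour 3 and day 8 were the high groups and overlapped each other, and the other 4 groups overlapped among themselves.

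Cxadr rose by 1.49 ± 0.343 (log2 fold change ± SE, adjusted p = 0.00082, edgeR's quasi-likelihood test) at hour 3 against hour 0, a 2.80-fold higher level. With library totals this rise was 0.34 (adjusted p = 0.353). At day 8 it was 1.63 ± 0.343 above hour 0 (adjusted p = 0.000823) and passed the test under all 15 other settings tried, with 1.27 under library totals. From day 8 to day 23 it fell by 1.60 ± 0.348 on the log2 scale (adjusted p = 0.00529, in all 16 other settings too), from 75.5 ± 17.6 to 25.1 ± 12.4 CPM (SD, n = 3). It was also lower at day 23 than at hour 3 (-1.46 ± 0.349, adjusted p = 0.00142), but not with library totals (-0.74, adjusted p = 0.0976). Day 8 against hour 3 was at 0.14 (adjusted p = 0.946) and higher with library totals (0.93, adjusted p = 0.0273). Day 1 (-0.05, adjusted p = 0.936), day 2 (-0.65, adjusted p = 0.268) and day 23 (0.02, adjusted p = 0.966) did not pass against hour 0. Day 2 passed as lower in 1 of 15 other settings, with no filter on low counts (-0.76, adjusted p = 0.0205). Without replicate 12 the day 1 value was 0.71 (adjusted p = 0.115).

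Epithelial cells are known to carry this receptor, so Cxadr was set beside their markers. All 13 epithelial markers had counts in every group, so none was at 0. Their summed level was 436 to 723 CPM at hour 0, with replicate 12 the highest, and 922 to 1275 at hour 3. It was 267 to 339 at day 1, 144 to 242 at day 2, 3021 to 3601 at day 8 and 827 to 1528 at day 23. The groups with the highest epithelial sums were thus day 8, then day 23 and hour 3, which overlapped, and Cxadr was low at day 23. Epcam, an epithelial adhesion gene, averaged 32.5 CPM at hour 0, 111 at hour 3, and then 309 at day 8 before 84.8 at day 23. The markers did not move as 1 at hour 3. Krt5 (50.2 to 6.29 CPM), Krt7 (59.6 to 18.3), Krt14 (107 to 27.0), Krt19 (2.70 to 0.609) and Grhl2 (25.4 to 14.5) had lower means there than at hour 0, and the other markers higher ones. The part of epithelial RNA in the changes of Cxadr was not tested. In bulk libraries, fewer cells of a type and less RNA per cell cannot be told apart.

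Cxadr shares 695 bases of exon with Btg3, an antiproliferative gene on the opposite strand, and the strand setting of the counting is not given in the sources used here, so reads from those bases could not be assigned to a strand. Btg3 averaged 6.77 CPM at hour 0 and 33.2 at hour 3. Its day 1 mean was 18.6 CPM, its day 2 mean 12.6, its day 8 mean 9.34 and its day 23 mean 11.2. The part of Btg3 reads in the counts of Cxadr was not tested. The background rate of the sensory receptor genes would give 3.12% of the hour 0 counts of Cxadr, 1.88% of those of day 1 and 9.77% of those of day 2, and at most 0.0951% in the low-background groups.

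**Figure D2:**
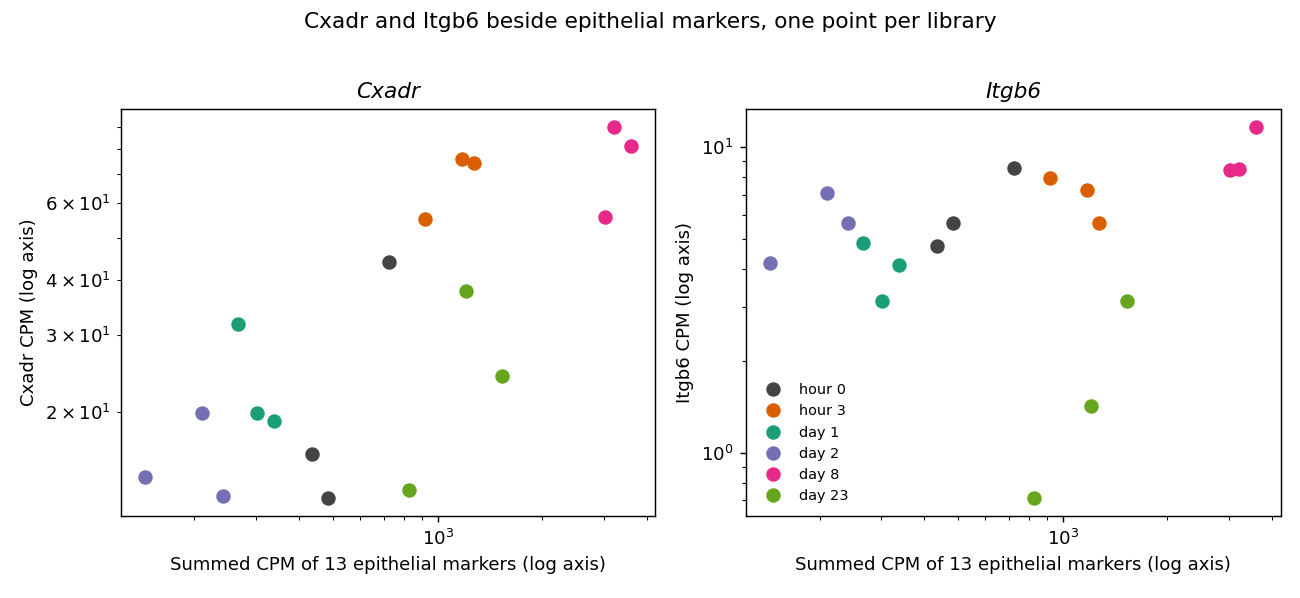
Level of Cxadr (left) and Itgb6 (right) in each library against the summed level of 13 epithelial markers, all in TMM-scaled CPM on log axes, coloured by time group. The day 8 libraries lie at 3021 to 3601 on the marker axis and are among the highest for both genes, while the day 23 libraries lie at 827 to 1528 and are the lowest for Itgb6.

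Itgav encodes the alpha v chain (ENSMUSG00000027087, chromosome 2, 83724397 to 83806916, plus strand), whose promoter is printed above. In the uninfected glands it was at 245, 200.5 and 216 CPM. The hour 3 values were 2332, 1829 and 1888 CPM. The day 1 values were 101, 76.2 and 118 CPM. The hour 3 libraries lay above every other library of the study, and the day 1 libraries below every other. At day 2 the values were 134, 143 and 172 CPM. At day 8 they were 277, 261 and 234 CPM, and at day 23 they were 296, 192 and 176 CPM. Hour 0, day 8 and day 23 overlapped, and day 2 lay between these groups and day 1 without overlap.

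Itgav rose by 3.19 ± 0.208 at hour 3 (9.15-fold, adjusted p = 3.77e-13), the largest rise among the 6 genes in any contrast. The rise was 2.01 with library totals (adjusted p = 3.04e-09) and passed under all 15 other settings. At day 8 it was lower than at hour 3 (-2.97 ± 0.206, adjusted p = 1.93e-12; -2.18 with library totals). At day 1 it was 2.24-fold below hour 0 (-1.16 ± 0.195, adjusted p = 3.09e-05), in all 16 other settings too.

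The step of Itgav at day 2 was near the threshold. It was lower than at hour 0 (-0.56 ± 0.193, adjusted p = 0.0493) but passed in 5 of 15 other settings, and not without replicate 10, 11, 12, 16 or 17 (adjusted p from 0.0518 to 0.188) or with library totals (-0.19, adjusted p = 0.584). It was higher than at day 1 (0.60 ± 0.194, adjusted p = 0.0256), in 8 of 15 other settings, and not without replicate 13, 14, 17 or 18 (adjusted p from 0.0544 to 0.116). At day 8 and day 23 Itgav was at 0.22 (adjusted p = 0.351) and 0.00 (adjusted p = 0.994) against hour 0. Estimated background was at most 1.42% of its counts in any group. Itgav shares 634 exon bases with the antisense transcript Gm13684, which held 75 counts over all 18 libraries.

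Itgb5 encodes the beta chain of a vitronectin receptor that pairs only with alpha v and is known for particle uptake (ENSMUSG00000022817, chromosome 16, 33829665 to 33949338, plus strand). Its level at hour 0 was 341, 259.9 and 313 CPM. Hour 3 libraries had 279, 299 and 302 CPM. At day 1 all 3 libraries lay between 34.8 and 35.8 CPM. The hour 0 and hour 3 libraries overlapped, and those of day 1 lay far below both. At day 2 the values were 75.0, 69.8 and 106 CPM. At day 8 they were 255, 249 and 258 CPM, and at day 23 they were 393, 289.6 and 365 CPM. Day 1 was the lowest group and day 2 the next, each apart from every other, while hour 0 overlapped with hour 3 and day 23.

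Itgb5 fell by 3.11 ± 0.183 on the log2 scale at day 1 (8.66-fold, adjusted p = 1.34e-13), the largest fall against hour 0 among the 6 genes. It was still 3.63-fold below hour 0 at day 2 (-1.86 ± 0.174, adjusted p = 3.01e-09). From day 1 to day 2 it rose by 1.25 ± 0.174 (adjusted p = 8.82e-06). These 3 calls passed in all other settings tried. All lie among the high-background libraries, whose background rates differed between these groups. Background made up an estimated 0.597% of its day 1 counts and 0.834% of its day 2 counts. Markers of several cell types were also low at day 1. The mural marker sum was 1132 to 1587 CPM at hour 0 and 123 to 141 at day 1, the glial sum 138 to 152 and 14.6 to 21.5, and the acinar sum 30750 to 70030 and 2354 to 3161. Pdgfra, a fibroblast marker that encodes a growth factor receptor, averaged 1922 CPM at hour 0 and 182 at day 1. The markers did not all move this way. The fibroblast markers Pdpn (60.4 to 338 CPM) and Pdgfrb (413 to 440) had higher means at day 1, and the other fibroblast markers lower ones. Among the mural markers Notch3 (13.7 to 31.7) and Des (23.0 to 53.1) had higher means, and the others lower ones. The part of these markers' cells in the fall of Itgb5 was not tested. In the fit of all libraries with TMM, Itgb5 passed in no contrast with hour 3, day 8 or day 23. Hour 3 was at -0.05 (adjusted p = 0.789), day 8 at -0.26 (0.206) and day 23 at 0.20 (0.369) against hour 0. Day 8 passed as lower than hour 0 in a fit of the 2 groups (-0.36, adjusted p = 0.0333), without day 2 (-0.40, 0.0437) and with DESeq2 (-0.39, 0.0355), and as lower than hour 3 in a fit of those 2 groups (-0.24, 0.0355). With library totals it was lower at hour 3 (-1.23, adjusted p = 2.19e-06), lower at day 8 than at hour 0 (-0.66, adjusted p = 0.00624), and higher at day 8 than at hour 3 (0.57, adjusted p = 0.0153), where TMM gave -0.21 (adjusted p = 0.434). It was also higher at day 23 than at hour 3 (0.99, adjusted p = 6.5e-05), where TMM gave 0.25 (adjusted p = 0.312).

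Itgb3 encodes the beta chain that pairs with alpha v on many cells and with the product of Itga2b on platelets (ENSMUSG00000020689, chromosome 11, 104608000 to 104670476, plus strand). It was at 36.9, 24.1 and 24.8 CPM at hour 0. At hour 3 it was at 48.0, 47.5 and 38.6 CPM, and at day 1 at 33.3, 22.8 and 36.1 CPM. The hour 3 libraries lay above all others. At day 2 the values were 20.1, 17.9 and 25.2 CPM, at day 8 they were 19.7, 18.4 and 22.8 CPM, and at day 23 they were 22.3, 17.4 and 22.7 CPM. Day 2, day 8 and day 23 overlapped with each other, and hour 0 with day 1 and day 2.

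The call of Itgb3 at hour 3 depended on the scaling. It rose by 0.64 ± 0.22 (adjusted p = 0.0159), but with library totals it was lower (-0.54, adjusted p = 0.0357), and the call was lost without replicate 4, 5, 11 or 12 (adjusted p from 0.0595 to 0.0752) or without day 2 (0.0618). From hour 3 it fell by 1.14 ± 0.222 at day 8 (adjusted p = 0.000144) and was at -1.11 ± 0.227 at day 23 (adjusted p = 0.000254), calls that library totals ended (-0.37 for both, adjusted p = 0.247). Day 1 was at 0.10 against hour 0 (adjusted p = 0.784). Day 8 was at -0.49 against hour 0 (adjusted p = 0.0688) and passed as lower in 6 of 15 other settings, among them library totals (-0.90, adjusted p = 0.00327) and DESeq2 (-0.63, adjusted p = 0.0222). Platelets are a known source of Itgb3 RNA, and the summed level of 7 platelet markers was 1.99 to 7.02 CPM at hour 0, 1.45 to 2.83 at hour 3 and 8.56 to 8.95 at day 2. At day 23 all 7 were at 0. The part of platelet RNA in the levels of Itgb3 was not tested.

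Itgb1 encodes the beta chain shared by many integrins, with alpha v as 1 of its partners (ENSMUSG00000025809, chromosome 8, 128685654 to 128733200, plus strand). It was at 384, 349 and 340.3 CPM at hour 0. At hour 3 it was at 1030, 962 and 955 CPM, and at day 1 at 293, 208 and 253 CPM. Hour 3 stood above all other libraries, and day 1 below those of hour 0. At day 2 the values were 162, 174 and 281 CPM, at day 8 they were 396, 386 and 366 CPM, and at day 23 they were 335, 267 and 269.6 CPM. Hour 0 and day 8 overlapped, as did day 1, day 2 and day 23.

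Itgb1 rose by 1.46 ± 0.186 at hour 3 (2.75-fold, adjusted p = 2.28e-07), but only by 0.28 with library totals (adjusted p = 0.196). From hour 3 it fell by 1.36 ± 0.186 at day 8 (adjusted p = 7.76e-07) and was at -1.76 ± 0.188 at day 23 (adjusted p = 1.13e-08), and both calls passed in all 16 other settings. Against hour 0 it was lower at day 2 (-0.80 ± 0.184, adjusted p = 0.00217), in 14 of 15 other settings, with library totals the exception (-0.43, adjusted p = 0.157). The lower level at day 1 (-0.51 ± 0.183, adjusted p = 0.0446) passed in 7 of 16 other settings. It was lost without replicate 10, 11, 12, 14 or 15 (adjusted p from 0.0656 to 0.145). Itgb1 was at 0.10 at day 8 (adjusted p = 0.695) and -0.30 at day 23 (adjusted p = 0.197) against hour 0, the latter lower with library totals (-0.74, adjusted p = 0.00605) and DESeq2 (-0.42, adjusted p = 0.0488).

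Itgb6 encodes a beta chain of epithelial cells that activates the growth factor TGF-beta (ENSMUSG00000026971, chromosome 2, 60598292 to 60722643, minus strand). It was the lowest of the 6 genes, at 4.74, 5.66 and 8.52 CPM at hour 0. At hour 3 it was at 7.95, 7.25 and 5.66 CPM, and at day 1 at 3.14, 4.88 and 4.11 CPM. These groups overlapped, apart from hour 3 against day 1. At day 2 the values were 7.06, 4.17 and 5.63 CPM, at day 8 they were 8.50, 11.6 and 8.45 CPM, and at day 23 they were 0.713, 3.14 and 1.42 CPM. The day 23 libraries, whose counts were 4, 36 and 6, were the lowest, with the highest of them level with the lowest of day 1.

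Itgb6 fell by 2.32 ± 0.446 on the log2 scale from day 8 to day 23 (5.00-fold in the fit, adjusted p = 0.00192) and was lower at day 23 than at hour 3 (-1.87 ± 0.45, adjusted p = 0.00155), in all 16 other settings for both. Against hour 0 the day 23 value was -1.73 ± 0.446 (adjusted p = 0.0063), a call lost in a fit of only the 2 groups (adjusted p = 0.0871). The day 8 libraries held 102 to 143 counts of Itgb6. With library totals Itgb6 was lower at hour 3 than at hour 0 (-1.03, adjusted p = 0.0255) and higher at day 8 than at hour 3 (1.22, adjusted p = 0.0171), where TMM gave 0.14 (adjusted p = 0.781) and 0.45 (adjusted p = 0.487). The background rate would account for 12.0% of its hour 0 counts, 10.4% of those of day 1 and 25.8% of those of day 2, but 0.185% at day 8 and 0.737% at day 23. As with Cxadr, the day 8 libraries had the highest epithelial marker sums, and the part of epithelial RNA in this change was not tested.

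**Figure D3:**
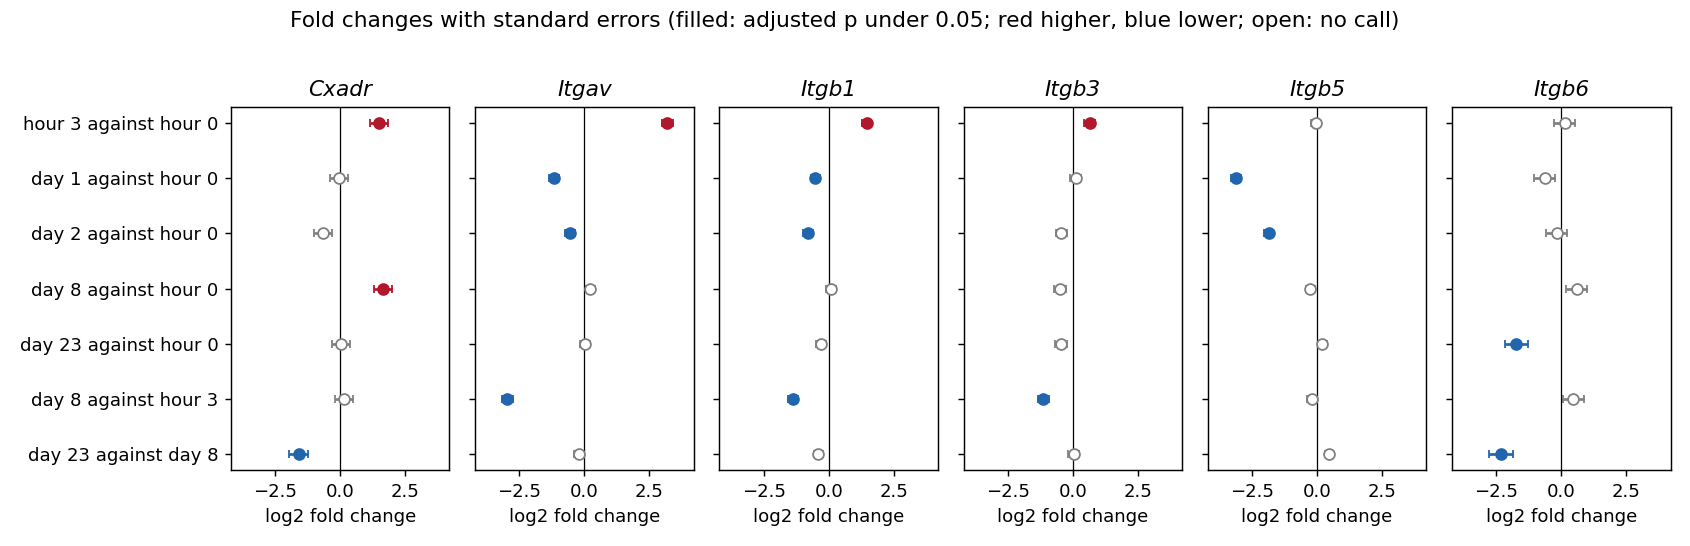
Log2 fold changes of the 6 genes (points) with standard errors (bars) in 7 contrasts from 1 edgeR fit of 18 libraries, where red and blue points passed an adjusted p of 0.05 as higher and lower and open points did not pass. Itgav at hour 3 (3.19) and Itgb5 at day 1 (-3.11) lie farthest to the right and the left of hour 0.

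Per kb of exon, where genes can be set side by side, the order at hour 0 was Itgb1 (87.7 CPM per kb) and Itgb5 (85.7), which overlapped, then Itgav (20.5), Itgb3 (4.85), Cxadr (3.28) and Itgb6 (0.887). At hour 3 it was Itgb1 (241) and Itgav (188), then Itgb5 (82.5), Cxadr (9.25), Itgb3 (7.57) and Itgb6 (0.978). At day 1 the order was Itgb1 (61.7), Itgb5 (9.90) and Itgav (9.17), then Itgb3 (5.21), Cxadr (3.18) and Itgb6 (0.569). At day 2 Itgb1 (50.3) was followed by Itgb5 (23.6), Itgav (13.9), Itgb3 (3.57), Cxadr (2.11) and Itgb6 (0.791). At day 8 the values were 93.7 for Itgb1, 71.5 for Itgb5, 24.0 for Itgav, 10.2 for Cxadr, 3.44 for Itgb3 and 1.34 for Itgb6. At day 23 Itgb5 (98.3) was above Itgb1 (71.2), with Itgav at 20.6, Itgb3 at 3.52, Cxadr at 3.39 and Itgb6 at 0.247. The fibre receptor was thus below alpha v, Itgb1 and Itgb5 in the mean of every group. Other neighbours in these orders overlapped too. The ranges over libraries did so for Itgb3 and Cxadr at hour 0, hour 3, day 1 and day 23. The same held for Itgb5 and Itgav at day 1 and for Itgb1 and Itgb5 at day 23.

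The beta partners of alpha v were also compared within each library, as shares of the sum of Itgb1, Itgb3, Itgb5, Itgb6 and Itgb8 per kb. Such shares do not depend on how libraries are scaled to each other, and they count all transcripts of a subunit, whatever alpha chain its protein joins. At hour 0, Itgb1 held 46.6% to 51.8% and Itgb5 44.3% to 49.2%. At hour 3 Itgb1 held 71.4% to 73.9% and Itgb5 23.0% to 25.9%. At day 1 Itgb1 held 74.4% to 80.1% and Itgb5 11.0% to 14.7%. At both times the Itgb5 share lay below that of every uninfected library, and the Itgb1 share above.

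The Itgb5 share was higher at the later times. Between day 2 and day 8, and between hour 0 and day 23, set and time cannot be told apart. At day 2 Itgb5 held 29.1% ± 1.78 (SD, n = 3), at day 8 it held 41.4% ± 1.20, and at day 23 it held 56.2% ± 2.62. The day 23 libraries (53.8% to 58.9%) lay above those of hour 0. Itgb3 held 2.66% ± 0.429 at hour 0, 6.49% ± 0.978 at day 1 and 4.47% ± 0.539 at day 2, and 1.99% to 2.27% on average in the low-background groups. Itgb6 held under the share of each of the others in every group, at 0.152% at day 23 and 1.02% at day 2 on average. Itgb8, which encodes the remaining partner and also serves TGF-beta activation (ENSMUSG00000025321), held 0.968% at hour 0, 0.408% at hour 3, 3.18% at day 1 and 4.05% at day 2. Its own level was higher than at hour 0 at day 2 (0.90 ± 0.226, adjusted p = 0.00504), but not without replicate 18 (0.72, adjusted p = 0.0671). It was higher at day 8 than at hour 0 (0.74 ± 0.225, adjusted p = 0.0116, in 11 of 15 other settings) and hour 3 (1.10 ± 0.23, adjusted p = 0.000315), and fell from day 8 to day 23 (-0.97 ± 0.231, adjusted p = 0.0114).

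**Figure D4:**
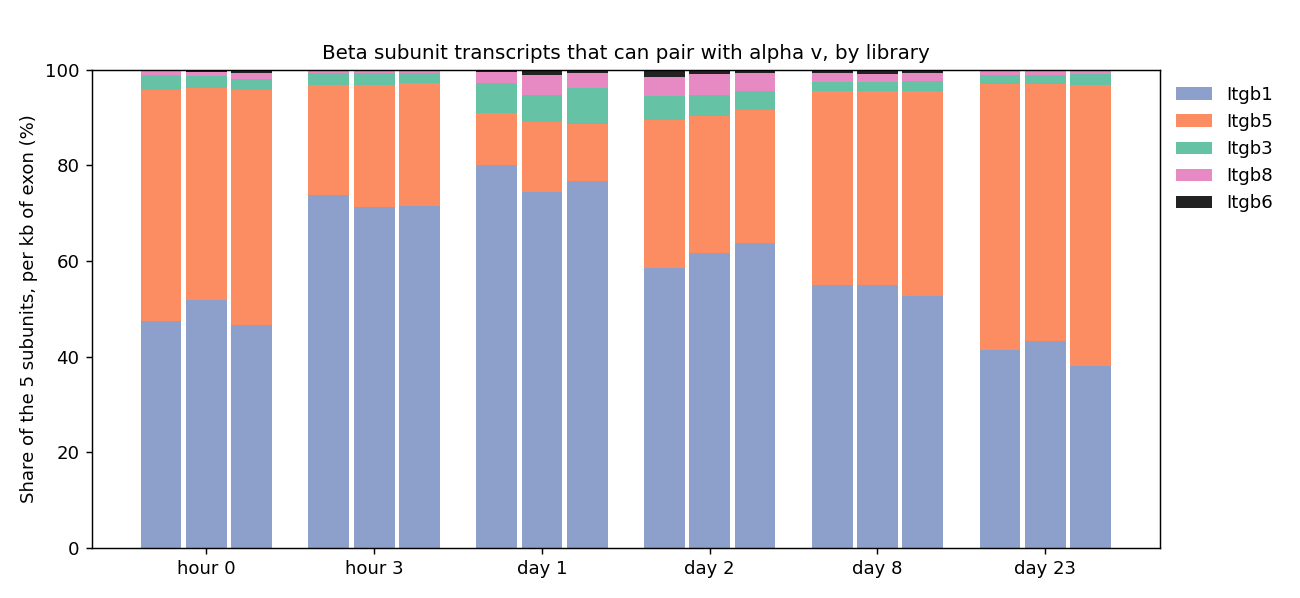
Shares of the 5 beta subunit transcripts that can pair with alpha v in each of the 18 libraries, in percent of their sum per kb of exon, grouped by time. Itgb5 takes 44.3% to 49.2% at hour 0, 11.0% to 14.7% at day 1 and 53.8% to 58.9% at day 23.

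The ratio of alpha v to Itgb5 transcripts per kb was 0.228 to 0.255 at hour 0, 2.02 to 2.76 at hour 3 and 0.704 to 1.13 at day 1. The hour 3 ratio came with a high Itgav level and the day 1 ratio with a low Itgb5 level. At day 2 it was 0.533 to 0.678, at day 8 it was 0.300 to 0.359, and at day 23 it was 0.159 to 0.249. Itgav relative to the sum of the 5 beta subunits was 0.112 to 0.115 at hour 0 and 0.516 to 0.636 at hour 3, against at most 0.193 in any library of another group. At day 1 this ratio was 0.103 to 0.136, overlapping hour 0.

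The genes around these receptors were taken as 8 lists: other integrin subunits, relatives of Cxadr, its binding partners, other adenovirus receptors, heparan sulphate proteoglycans, ligands of alpha v integrins, endocytosis and particle transport, and integrin adaptors. They moved in both directions at day 1 against hour 0, a contrast with 22.5% of all genes called (9.67% higher, 12.8% lower). Of 21 other integrin subunits, 1 rose and 6 fell (median -0.55, all genes -0.41). The riser was Itga5, the alpha chain of the fibronectin receptor that pairs with Itgb1, at 2.14 ± 0.274 (adjusted p = 4.10e-07), from 80.1 to 353 CPM. Among the falls were Itga8, another alpha partner of Itgb1 (-5.18), and the collagen receptor chain Itga11 (-3.24). Of 16 ligands of alpha v, 7 rose and 6 fell, with the matrix gene Tnc (4.13) and osteopontin, Spp1 (3.46), among the rises and Tgfb3 (-1.55) and fibronectin, Fn1 (-1.46), among the falls. Thus Itgav and Itgb5 were lower while the ligands of alpha v moved in both directions.

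Attachment genes other than Cxadr were mixed at day 1, where 22.5% of all genes were called (9.67% higher, 12.8% lower). Heparan sulphate proteoglycans, to which adenoviruses can also bind, rose in 4 and fell in 5 of 11, with Sdc3 at 3.13 and Gpc6 at -4.67. Of 9 other adenovirus receptors 1 rose, Cd80 (3.22), and 2 fell, 1 of them Dsg2, a desmosomal receptor of other adenovirus types (-1.98). Of 9 relatives of Cxadr, F11r rose (0.95) and Jam3 fell (-0.82), both junction proteins. For these relatives and the 9 other receptors the counts are near the share of all genes called, which is no result about these lists. Of 7 Cxadr binding partners 1 rose and 4 fell, among them the scaffold gene Mpdz (-1.65). Of 27 endocytosis and transport genes 11 rose and 3 fell at day 1, with the adaptor gene Bcar1 at 1.68 and the kinase subunit gene Pik3r1 at -1.35. From day 1 to day 2, where 23.2% of all genes were called (12.0% higher, 11.2% lower), 20 of these 27 fell and none rose. Their median was -0.69 and that of all genes 0.78, while Itgav and Itgb5 rose. The part of background in the median of all genes was not tested. With library totals 10 fell and 1 rose.

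At hour 3 against hour 0, across the 2 background sets, 60.0% of all genes were called (16.9% higher, 43.1% lower). Of the 16 alpha v ligands 15 rose and none fell (median 1.38, all genes -1.41). Thbs1, the matricellular protein thrombospondin, rose by 7.46 ± 0.368 and Ccn2 by 5.86 ± 0.344. With library totals 6 of the 16 rose and none fell. Among 21 other integrin subunits 6 rose and 6 fell, and 2 rose and 15 fell with library totals. The 6 and 6 together are near the share of all genes called, which is no result about this list. Itga5 rose by 6.39 ± 0.33, from 80.1 to 6739 CPM, and by 5.23 with library totals, so that this partner of Itgb1 rose more than Itgav. Endocytosis and transport genes had 19 rises and 3 falls of 27 (5 and 12 with library totals), with the clathrin adaptor Dab2 at 4.24 and the importin Ipo7 at 3.03, and the exportin Xpo1 at -1.82. The proteoglycan Sdc4, which joins integrins in focal adhesions, rose by 4.88, and of 12 integrin adaptors 7 rose and 1 fell, with Vcl at 2.78 (4 and 7 with library totals). Of 7 Cxadr binding partners 2 rose and 2 fell, with Jaml, a leukocyte receptor for the Cxadr protein, at 3.16 from 1.73 to 15.3 CPM. With library totals 1 of the 7 rose and 6 fell. The 2 rises and 2 falls with TMM are together near the share of all genes called, which is no result about these partners.

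From day 8 to day 23, the contrast in which Cxadr and Itgb6 fell, 5.32% of all genes were called, and 0 of the 27 endocytosis genes and 0 of the 7 Cxadr partners, which at that background is no result about these lists. Of the other integrin subunits 6 fell and none rose, among them Itgb4 (-2.04) and Itga6 (-1.30), which together form the integrin of epithelial hemidesmosomes. The desmosomal receptor Dsg2 fell from 251 to 88.3 CPM, and the junction gene F11r fell by 1.21 on the log2 scale. Of the 16 ligands of alpha v 1 rose and 5 fell, with Tnc (-1.72) and Thbs1 (-1.17) among the falls. The riser was Vtn, which encodes vitronectin, the ligand of the Itgb5 receptor. It rose by 1.65 ± 0.25 (adjusted p = 0.000167), from 20.7 to 64.9 CPM. Itgb5 itself was at 0.46 in this contrast (adjusted p = 0.12). It passed as higher in 4 of 16 other settings, with values from 0.32 to 0.57 over all of them.

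**Figure D5:**
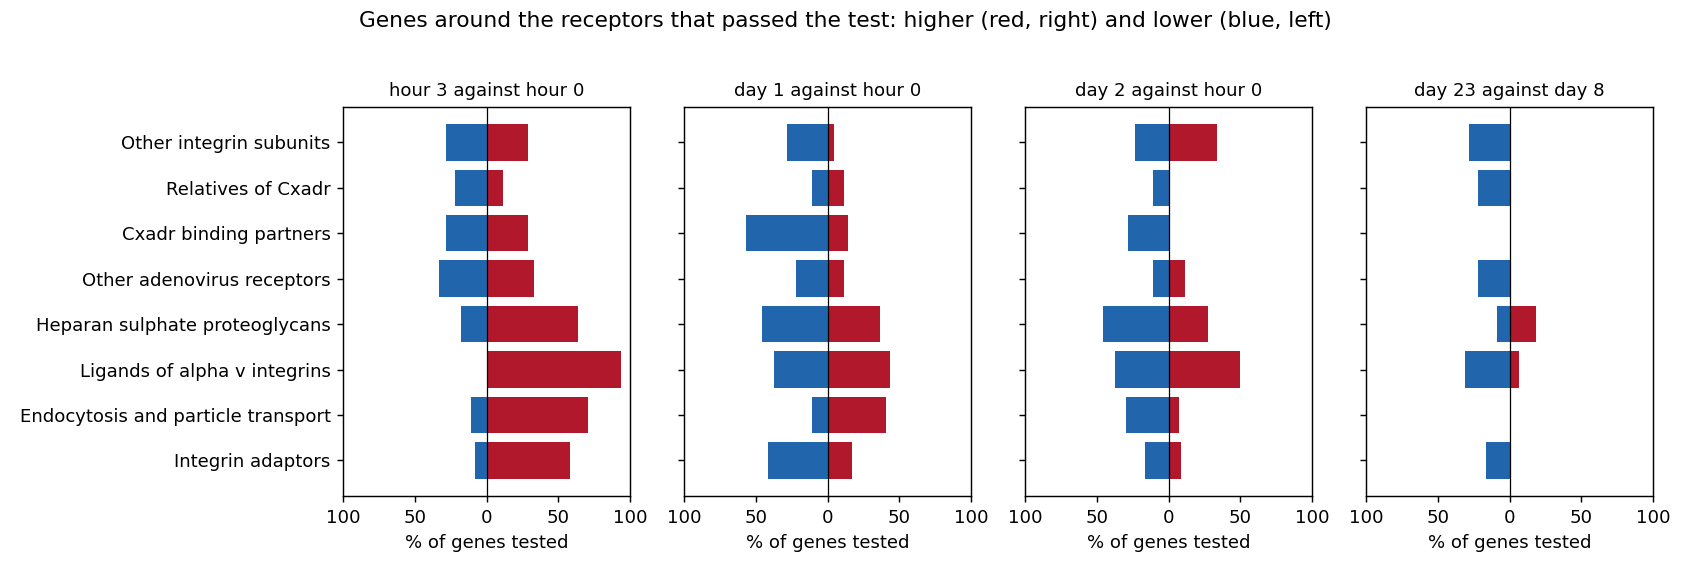
Percent of the tested genes of 8 lists around the receptors that passed an adjusted p of 0.05 as higher (red, to the right) or lower (blue, to the left) in 4 contrasts. At hour 3, where 16.9% of all genes were called as higher, the bars of the alpha v ligands hold 15 of 16 genes on the higher side. With library totals 6 of 16 rose.

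The genes most alike to each receptor gene over the 18 libraries were found by the correlation of log2 CPM among 12984 genes. The libraries share their time groups and background sets, so these values are a description. Itgav was most like Vcl (r = 0.986), which encodes the focal adhesion protein vinculin, then Creb3l2 (0.984) and Wwtr1 (0.983). Itgb5 was most like Col15a1, a basement membrane collagen gene (0.985), then Nedd4 (0.984) and Slc16a9 (0.981). Itgb1 was most like Serinc3 (0.980), Tlr4 (0.977) and Tnpo1 (0.970). Itgb3 was nearest to Shc2 (0.892), Ece1 (0.889) and Il6st (0.887). Cxadr was nearest to Klf5, which encodes a transcription factor of epithelial cells (0.890), then Etv6 (0.883) and Rab15 (0.880). Itgb6 was nearest to Mal (0.850), Tmprss13 (0.835) and Mybl2 (0.799). No receptor gene shared any of its 3 nearest genes with another.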

How the data were processed

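RNA of gp38+ stromal cells from 18 mice was sequenced from 10 ng of total RNA per library. The authors deposited raw counts of reads for each Ensembl identifier. FastQC, STAR, Subread and DESeq2 with mm10 are named per the submitters' processing notes. Their versions, the annotation release and the strand setting are not given in the sources used here, and reads shared by overlapping genes may be lost or split. Names, exon lengths and positions came from GENCODE M21, which held 55141 of 55401 identifiers (the other 260 held 0.0241% of counts). Total counts were 4398234 to 15234431, and counts of PCR reads without molecular identifiers carry more than counting error.

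A single edgeR model (version 4.0.16, in R 4.3.3) covered the 18 libraries, using filterByExpr (minimum count 10, minimum total 15; 27525 genes), TMM scaling and the quasi-likelihood F test in 9 contrasts and over all groups. P-values were adjusted by Benjamini-Hochberg over all genes of a contrast and called under 0.05. The script was tested on simulated data. Log2 CPM for likeness used a prior count of 2. Alternatives were DESeq2 size factors, library totals, no filter, only genes above 5 CPM in 3 libraries, limma-voom (limma 3.58.1), DESeq2 (1.42.0), only the 2 groups compared, only the 9 libraries of a set, no day 2, subtraction of background at the rate of the sensory receptor genes, and each replicate left out. Shares used merged exon length or the longest transcript.

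From each list at most 2 rises and 2 falls per contrast are named, at 10 CPM or more in the higher group, with all 6 receptor genes and Itgb8 always. Likeness names the 3 highest correlations. The genes, lists and tests were chosen with earlier results of these data known.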

Additional observations from a re-analysis of the deposited data

How the results depend on the processing

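No paired analysis was possible because the replicate numbers run from 1 to 18 and none is shared by 2 groups. The number of the 6 genes called, in either direction, stayed within 1.5 times at hour 3 against hour 0, day 1 against hour 0, day 23 against hour 3 and day 23 against day 8, but library totals turned its directions at hour 3 against hour 0 (from 4 higher and 0 lower to 1 higher and 3 lower) and at day 23 against hour 3 (from 0 higher and 5 lower to 1 higher and 3 lower). Elsewhere it was as follows, and the cause was not tested. For day 2 against hour 0 it was 1 with library totals. For day 2 against day 1 it was 4 with no filter (1 higher, 3 lower) and 1 to 2 with each replicate left out, 1 being without replicate 13 or 17. For day 8 against hour 3 it was 5 with library totals (3 higher, 2 lower). For day 8 against hour 0 it was 2 with DESeq2 size factors or the filter of 5 CPM and 3 with library totals, DESeq2, only the 2 groups or no day 2, in each with 1 higher (Cxadr) and the rest lower (Itgb3, or Itgb3 and Itgb5). For day 23 against hour 0 it was 2 with DESeq2 size factors, 3 with library totals or DESeq2, and 0 with only the 2 groups, all lower.

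Over the alternatives for single genes, 703 values kept their direction and their side of the threshold, 33 passed it anew, 38 no longer passed and 60 had the opposite sign. Library totals gave a called value of opposite sign for Itgb3 (-0.54, called as higher with TMM) and Itgb6 (-1.03, not called with TMM) at hour 3 against hour 0 and for Itgb5 at day 8 against hour 3 (0.57, not called with TMM). The other sign changes passed the test under neither setting. Cxadr at day 1 against hour 0 was 0.0778 with library totals, 0.11 with no filter, 0.0679 with limma-voom, 0.0302 with only the 2 groups, 0.0625 with only its set, and -0.36 to 0.71 with each replicate left out. At day 2 it was -0.97 to 0.11 with each replicate left out. At day 23 against hour 0 it was -0.0894 with DESeq2 size factors, -0.0917 with only the 2 groups, -0.0920 with no day 2, -0.40 with library totals, -0.0805 with the filter of 5 CPM, -0.0744 with DESeq2, -0.00475 after background subtraction, and -0.36 to 0.79 with each replicate left out. Itgav was -0.17 at day 8 against hour 0 with library totals. At day 23 against hour 0 it was -0.12 with DESeq2 size factors, DESeq2 or no day 2, -0.43 with library totals, -0.11 with the filter of 5 CPM, -0.0443 with limma-voom, -0.13 with only the 2 groups, -0.0683 after background subtraction, and -0.26 to 0.15 with each replicate left out. Itgb1 at day 8 against hour 0 was -0.0356 with DESeq2 size factors or DESeq2, -0.0357 with the filter of 5 CPM, -0.30 with library totals, -0.00272 with only the 2 groups, -0.0472 with no day 2, and -0.0432 to 0.16 with each replicate left out. Itgb3 at day 1 against hour 0 was -0.0295 to 0.33 with each replicate left out, and at day 23 against day 8 it was -0.00853 with library totals, -0.11 with no filter, -0.0256 with limma-voom and -0.0460 to 0.15 with each replicate left out. Itgb5 at hour 3 against hour 0 was 0.0627 with no filter and -0.15 to 0.0420 with each replicate left out, and at day 23 against hour 0 it was -0.23 with library totals. Itgb6 at day 2 against hour 0 was 0.0381 with DESeq2 size factors, 0.0362 with DESeq2, 0.20 with library totals and -0.37 to 0.10 with each replicate left out, and at hour 3 against hour 0 it was -0.0130 with no day 2 and -0.0255 to 0.43 with each replicate left out.

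With the longest transcript as length, the share of Itgb6 was 0.680% at hour 0, 0.404% at hour 3, 1.01% at day 1 and 1.06% at day 8, and that of Itgb8 was 0.500% at hour 3, 4.91% at day 2, 2.05% at day 8 and 1.04% at day 23. Depth limits Itgb6 at day 23 most, where its libraries held 4 to 36 counts.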
